A study of Homo sapiens with 8 samples.

Results

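Pairs of poly(A) sites whose nearer site is an annotated transcript end and whose farther site is not annotated made up 380 of the 4692 pairs that all 3 deposited tables of comparisons list. A pair was taken when its proximal site carried a Gencode transcript name and its distal site only a chromosome position, and such a pair is called an annotated-to-unannotated pair. The pairs came from 277 of 2639 genes and joined 297 annotated ends to 353 unannotated sites. The other shared pairs were 2223 with an unannotated proximal and an annotated distal site, 1069 with both sites annotated and 1020 with neither annotated.

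The cells were MDA-MB-231, an established human line of triple-negative breast cancer, and carried a catalytically dead Cas9 fused to the KRAB repressor (CRISPR interference), which lowers transcription at the gene a guide RNA targets. The 8 samples formed 4 groups of 2 replicates. All carried 2 guide positions, filled with non-targeting guides in the control, a guide to HNRNPC plus a non-targeting guide in HNRNPC knockdown (KD), a non-targeting guide plus a guide to PABPC4 in PABPC4 KD, and both targeting guides in the double KD. RNA 3′ ends were read with QuantSeq REV, a method that primes with oligo(dT) and starts its read at the poly(A) site. The tables hold no values per library, so neither the knockdown of each target, nor markers of the line, nor a spread between replicates could be given.

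Most human genes can end their messenger RNA at more than one place. The cleavage machinery reads a hexamer, most often AAUAAA, a short way before the cut, and a poly(A) tail is then added. Use of a nearer site gives a shorter 3′ UTR, or a truncated transcript when that site lies within the coding part or an intron. HNRNPC is a nuclear protein that binds runs of U in pre-mRNA, and PABPC4 is a poly(A)-binding protein that moves between cytoplasm and nucleus. Not every annotated end is a poly(A) site in use, because cDNA clones that stop early, or that were primed on an internal run of A, also leave transcript models.

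Each value in the authors' deposited tables is a logAPAR, which compares the proximal to distal read ratio of a KD with that of control on the natural log scale. Below 0 the pair shifted toward the unannotated distal site, and above 0 toward the annotated end. Its error is given as a Wald standard error recovered from the value and its p-value. The p-values rest on libraries summed within a group, so they measure counting error and leave out how replicates vary. A pair was called at p 0.01, the threshold of the study. Where 4 read numbers are given they follow the order control, HNRNPC KD, PABPC4 KD and double KD, and 3 values of logAPAR follow the order HNRNPC KD, PABPC4 KD and double KD. All 3 tables use the same control, and the PABPC4 KD table was assigned to its group by elimination, since its name mixes the abbreviations of both targets.

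Of the 297 annotated ends, 274 matched a transcript of the same version in Gencode 44 on hg38, and they lay inside genes rather than at their last exon's end. In 159 of these 274 ends (58.0%) the end fell within the 3′ UTR of the gene's canonical transcript, in 104 ends (38.0%) within a coding exon, in 8 within an intron, and in 3 at the canonical end itself. Distal annotated ends differed in place. Of the 1566 placed ends that follow an unannotated proximal site, 1142 (72.9%) were the canonical end and 7 (0.447%) lay in a coding exon. The proximal ends of pairs with both sites annotated were the nearest to these, with 544 of 851 in the 3′ UTR and 234 (27.5%) in a coding exon. The median genomic distance to the canonical end was 3161 nt for the 3′ UTR ends and 22910 nt for the coding-exon ends. The unannotated sites are named by position without a build, and 46 of the 353 fell inside their own gene on hg38, so their positions are given as deposited and no distance between the sites of a pair is given.

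**Figure D1:**
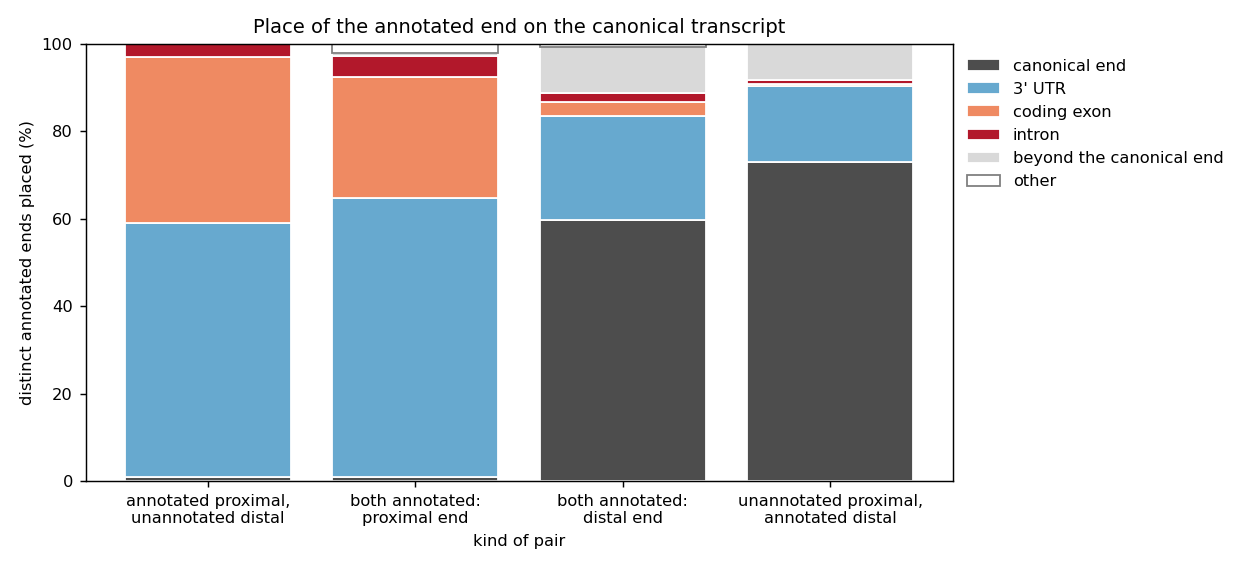
Share of distinct annotated ends, in percent of those placed, by their position on the canonical transcript, for each kind of pair (bars stacked to 100%). Coding-exon ends made up 38.0% of the ends of annotated-to-unannotated pairs (first bar) and 0.447% of the distal ends that follow an unannotated proximal site (last bar).

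The transcript models behind these ends were often incomplete. Of the 274 ends, 143 belonged to protein-coding transcripts, 50 to retained-intron models, 40 to models subject to nonsense-mediated decay, 40 to models without a defined coding part, and 1 to a non-stop model. Gencode marks 48 of them as lacking a known mRNA end, 46 of which lay in a coding exon. The hexamers of the poly(A) signal, AATAAA and its variant ATTAAA, were searched on the sense strand in the last 40 nt before each end. At least one was present at 76 of the 274 ends (27.7%), against 260 of the 851 proximal ends of pairs with both sites annotated (30.6%) and 1899 of all 2705 other placed ends (70.2%), most of them distal. Within the 3′ UTR 63 of 159 ends (39.6%) held it, and within coding exons 10 of 104 (9.62%). A-rich sequence, counted as a run of 6 A or 12 A among 20 nt, lay just before or just after 137 of the 274 ends (50.0%), at 413 of the 851 proximal ends (48.5%) and at 617 of the 2705 others (22.8%). In both features the ends were thus close to other proximal annotated ends. Oligo(dT) can prime on such sequence, and its part in the values below was not tested.

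Ends that held a hexamer within their last 30 nt are shown first, for pairs that shifted in the double KD. The hexamer of TMEM192, also called, lies farther from its end and is not shown. Each line gives the last 30 nt of the annotated transcript on hg38 (Gencode 44), 5′ to 3′ on the strand of the gene, with the hexamer in capitals.
RNF213 (chr17:80395283-80395312, plus strand): ttAATAAActggagttttgctgctaaagaa
TSPAN14 (chr10:80522602-80522631, plus strand): AATAAAaatctaaacataagagaatgtaaa
UVRAG (chr11:76142622-76142651, plus strand): tatagaagAATAAAaattgagtttacttca
AXL (chr19:41260265-41260294, plus strand): aattctATTAAAgtgctaaggttctaaggc
PAICS (chr4:56461339-56461368, plus strand): ATTAAAaggacttagaagattaactttggt
WAC (chr10:28620514-28620543, plus strand): ttgtAATAAAcatgttaaaacaaacaaaaa
ANTXR2 (chr4:79905571-79905600, minus strand): acacattcataAATAAAaattttacctatg

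These ends are single-copy sequence. For every placed end, the exact occurrences on hg38, both strands, of each 20-mer in its last 60 nt were counted, and the median over the 41 20-mers was 1 at each of the 7 ends above and at 212 of the 274 ends.

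A second set of ends lay in repeated sequence, counted here as a median of 100 copies or more, and 7 of the 10 pairs that shifted toward the distal site in the double KD ended there. The last 30 nt of 3 of these are shown as examples, with runs of 5 or more A in capitals.
WIPF2 (chr17:40279840-40279869, plus strand): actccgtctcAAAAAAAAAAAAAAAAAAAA
NMNAT1 (chr1:9983640-9983669, plus strand): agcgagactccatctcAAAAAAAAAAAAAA
METTL2A (chr17:62450793-62450822, plus strand): gcctgggtgacaagagcgaaactgcatctc

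Sequence of this kind is typical of Alu elements, short interspersed repeats that are present in very many copies in the human genome and carry A-rich stretches in their middle and at their end. No repeat annotation was used here, so the ends are set apart by their copies alone. The median number of copies was 12120 for PRKAR2A, 46880 for WIPF2, 22630 for NMNAT1, 1080 for TRIM56, 3377 for DCLRE1C, 1303 for METTL2A and 61910 for METTL2B. None of the 7 held a hexamer in the last 40 nt. Reads that stop in such sequence can match other places in the transcriptome, and how they were shared among them was not tested.

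Across the annotated-to-unannotated pairs, the double KD moved more pairs than either single KD. In HNRNPC KD 6 of the 380 pairs passed p 0.01 (1.58%), against 2.49% of all shared pairs. In PABPC4 KD 1 pair passed (0.263%), against 0.916%. In the double KD 24 pairs of 24 genes passed (6.32%), against 5.88%. The share in the double KD was thus near that of all shared pairs, and the shares in the single KDs were below it. Of the 24 pairs, 10 shifted toward the unannotated site and 14 toward the annotated end, with 3.37% and 2.51% of all shared pairs called in these directions. At the deposited adjusted p 0.05 only 6 pairs passed, against 3.07% of all shared pairs, and at p 0.001 also 6, against 2.98%, in both cases 4 toward the unannotated site and 2 toward the annotated end, so the balance of directions turned with the threshold. Without the pairs whose annotated end lay in repeated sequence, 3 shifted toward the unannotated site and 14 toward the annotated end.

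No pair passed in all 3 tables. Of the 24 pairs called in the double KD, 4 also passed in HNRNPC KD (AXL, METTL2B, RILPL1 and TRIM56), none in PABPC4 KD, and 20 in neither. Over all shared pairs 2.49% passed in HNRNPC KD and 0.916% in PABPC4 KD. Overlaps were counted only among the annotated-to-unannotated pairs, so none of these counts is shown to be particular to them. In 19 of the 24 pairs the 3 values had the same sign. All 3 values share the control, so their signs are not independent, and this share was not counted over all shared pairs. The double KD value was larger in size than the HNRNPC KD value in 22 pairs and than the PABPC4 KD value in 24 pairs, which follows in part from choosing the pairs in the double KD.

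**Figure D2:**
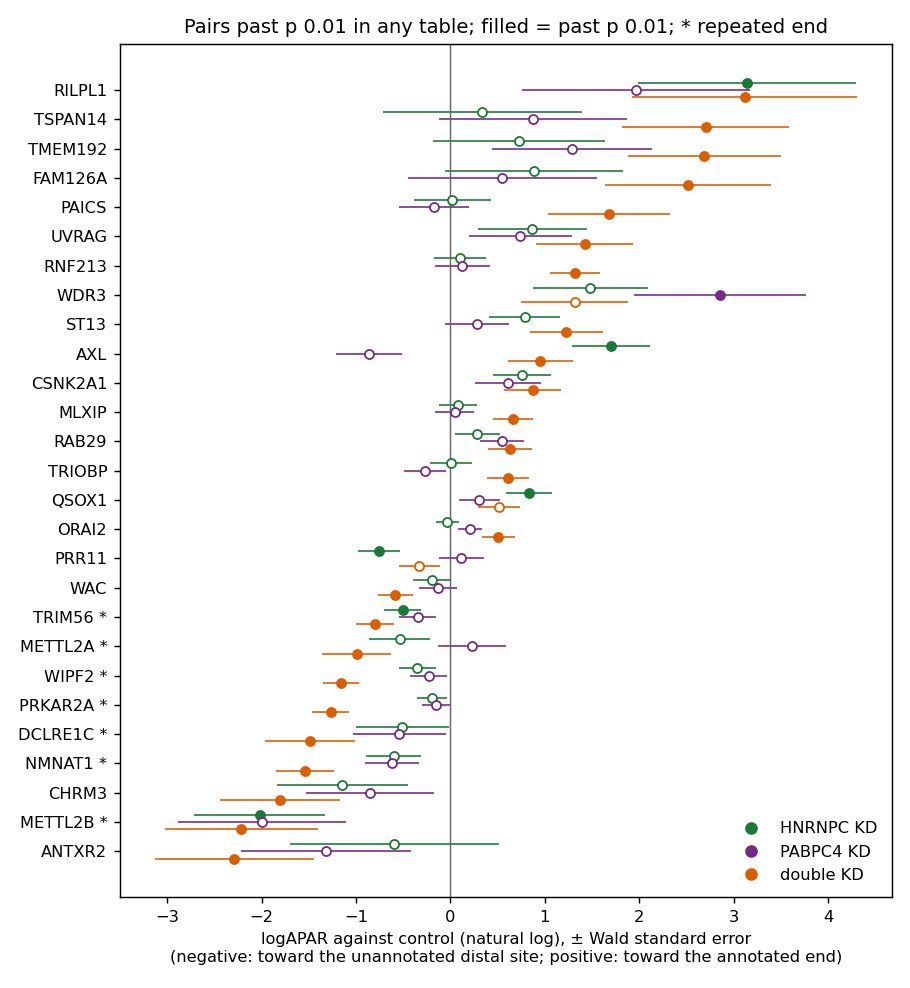
logAPAR against control (x axis, natural log, ± Wald standard error) of the 27 annotated-to-unannotated pairs past p 0.01 in any of the 3 tables, with filled points past p 0.01 and repeated ends marked by an asterisk. Of the 10 pairs filled at negative double KD values 7 have repeated ends, and none of the 14 pairs filled at positive double KD values has one.

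The median logAPAR of the 380 pairs was 0.04, 0.07 and 0.19 in the 3 tables, beside medians of 0.00, 0.01 and -0.01 over all shared pairs. In the double KD 226 of the 380 values (59.5%) lay above 0, against 49.3% of all shared pairs. The single values were imprecise, with a median Wald standard error of 0.73 in the double KD.

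The reads behind the pairs could be recovered where a gene had 3 or more shared sites, because the errors of its pairs then fix the normalised reads of every site in every group, both replicates summed. This gave reads for 305 of the 380 pairs. The annotated end had a median of 12.5 reads in control and 15.5 in the double KD, and the unannotated site 8.80 and 8.92. The site with fewer reads had under 10 in control in 234 of the 305 pairs (76.7%), and 5 pairs had 100 or more reads at both sites in control, 3 of which passed p 0.01 in the double KD. Of the 20 pairs called in the double KD with reads, 7 had under 10 reads at a site in control or the double KD, so changes of these pairs rest on few reads and small changes of most other pairs were not detectable at this depth.

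PRKAR2A, which encodes a regulatory subunit of protein kinase A, had the smallest p of all annotated-to-unannotated pairs in the double KD. Its annotated end lay in the 3′ UTR, 3062 nt before the canonical end. That end had 162 reads in control and 46.4 in the double KD, with 114 and 135 in the single KDs of HNRNPC and PABPC4. The unannotated site (chromosome 3, position 48784475 as deposited) had 210, 180, 204 and 214 reads. The annotated end was therefore lowest in the double KD and the unannotated site was at a similar level in control and the double KD. logAPAR was -0.19 ± 0.16, -0.15 ± 0.15 and -1.27 ± 0.19 (double KD Wald p 4.52e-11, deposited adjusted p 1.95e-08). The canonical end of the gene had 62.6 reads in control and 59.2 in the double KD.

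WIPF2, a WASP-interacting protein that acts on the actin cytoskeleton, and NMNAT1, the nuclear enzyme of NAD+ synthesis, had the deepest annotated ends of the 20 called pairs with recovered reads. The WIPF2 end, on a model subject to nonsense-mediated decay, had 1731, 1354, 1432 and 755 reads, while the unannotated site had 51.0, 56.6, 53.2 and 70.9. The repeated end took 96.4% of the gene's reads in control and the canonical end 0.634%. Its logAPAR was -0.35 ± 0.20, -0.23 ± 0.20 and -1.16 ± 0.19 (double KD Wald p 7.95e-10). The NMNAT1 end had 789, 667, 697 and 223 reads and its unannotated site 19.8, 30.6, 32.5 and 26.1. Its logAPAR was -0.60 ± 0.29, -0.62 ± 0.29 and -1.54 ± 0.31 (double KD Wald p 5.50e-07). Both annotated ends were lower in all 3 KDs than in control, and lowest in the double KD.

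TRIM56, a ubiquitin ligase of antiviral signalling, passed p 0.01 in HNRNPC KD and the double KD. Its annotated end had 125, 87.5, 93.4 and 73.8 reads, lower in every KD than in control. The gene had 2 unannotated distal sites that behaved differently, with 102 reads in control and 134 in the double KD at position 100736645 of chromosome 7 and 116 and 55.5 at position 100736322. The pair with the first site had logAPAR values of -0.50 ± 0.19, -0.35 ± 0.19 and -0.80 ± 0.20. The pair with the second site had 0.21 ± 0.22 in the double KD, so the direction at this gene depended on which unannotated site the end was set against.

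DCLRE1C, which encodes the Artemis nuclease of DNA end joining, has only 2 shared sites and therefore no recovered reads. Its logAPAR was -0.51 ± 0.49, -0.54 ± 0.49 and -1.49 ± 0.47 (double KD Wald p 0.00166). METTL2A and METTL2B encode near-identical tRNA methyltransferases, so reads may be shared between them and their values are uncertain. The METTL2A end had 71.6, 51.0, 59.1 and 24.4 reads and a double KD logAPAR of -0.99 ± 0.37. The METTL2B end had only 9.02, 3.61, 1.78 and 2.23 reads, with logAPAR of -2.02 ± 0.69, -1.99 ± 0.89 and -2.21 ± 0.81 against one of its 3 unannotated sites. METTL2A fell outside the rule for named genes and was named after its values were seen.

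**Figure D3:**
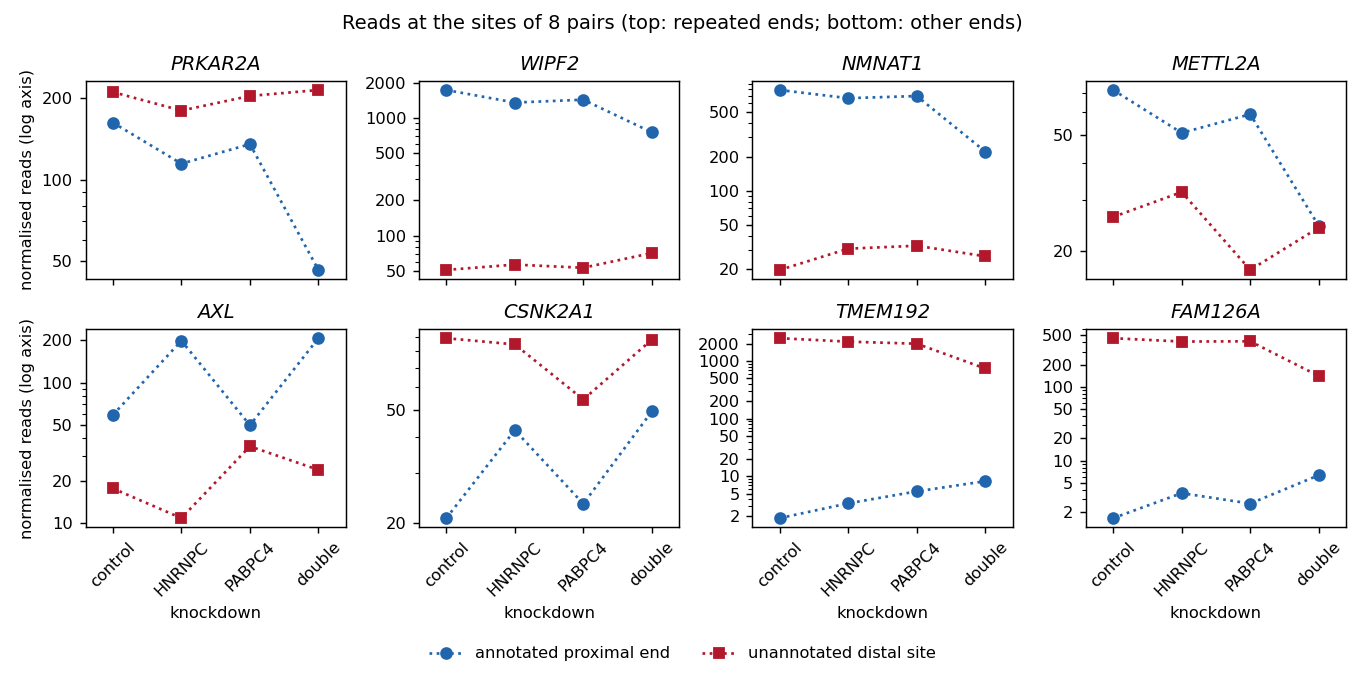
Normalised reads (log axes, both replicates summed, no replicate spread available) at the annotated proximal end (circles) and the unannotated distal site (squares) of 8 pairs in the 4 groups, repeated ends in the top row. At PRKAR2A, WIPF2, NMNAT1 and METTL2A the annotated end was lowest in the double KD (46.4, 755, 223 and 24.4 reads), and at TMEM192 and FAM126A the unannotated site was (745 and 141 reads).

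The repeated ends were then taken as a group, a grouping made after the values were seen and given with no test. In all 25 pairs of 20 genes (7.20% of the placed pairs) had a repeated end. Their median logAPAR was -0.19, -0.23 and -0.80, and in the double KD 20 values lay below 0 and 5 above. Of the 25, 7 were called there, all toward the unannotated site. Over all shared pairs 3.37% were called toward the distal site and 2.51% toward the proximal one. Pairs of 2 annotated ends with a repeated proximal end were alike, with 30 of 97 called toward the distal site and 1 toward the proximal. The 322 placed annotated-to-unannotated pairs without a repeated end had medians of 0.07, 0.08 and 0.26. In the double KD 2 of them were called toward the unannotated site and 13 toward the annotated end. Among the repeated ends that did not pass p 0.01, PSMB2, a proteasome subunit gene, had a double KD logAPAR of -1.24 ± 0.61, IVD, an enzyme of leucine breakdown, -1.02 ± 0.51, and the 2 pairs each of LYRM2 and SMARCE1 lay between -1.23 and -0.90. The 5 positive values, from 0.01 to 0.54, came from KLHL8, PAWR, TRIM56, CBFA2T2 and TNFSF15. The 7 pairs with 10 to under 100 copies lay on the other side, with a median of 0.37 and 6 values above 0. Nearest the limit from below were TMEM245 with 91 copies and a double KD logAPAR of 0.37, PRR11 with 82 and -0.33, and MAP3K20 with 51 and 0.82, and from above GATAD1 with 118 and -0.60 and RAD1 with 221 and -0.23. The genes of this paragraph, TRIM56 and PRR11 excepted, were named after their values were seen.

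**Figure D4:**
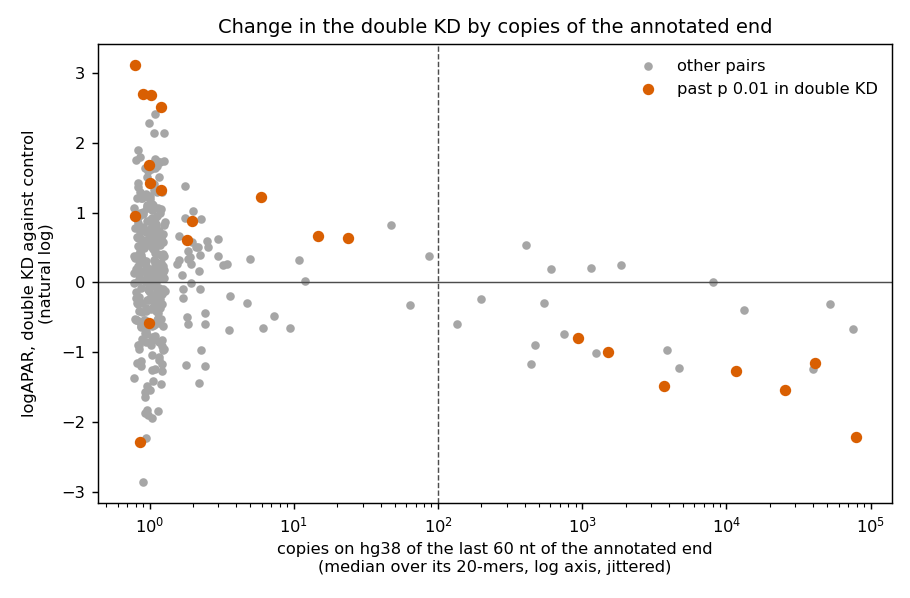
logAPAR in the double KD (y axis, natural log) against the copies on hg38 of the annotated end (x axis, log scale, median over its 20-mers, jittered), one point per placed pair, with called pairs in orange and the line at 100 copies. To the right of the line 20 of 25 values lie below 0, and none of the 7 called pairs there is above 0.

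At the repeated ends, reads themselves were lower in the double KD. Over the 14 repeated annotated ends with recovered reads, the double KD had a median of 0.381 of the control reads (quartiles 0.284 and 0.576), with 12 ends below control and 2 above. HNRNPC KD had 0.854 and PABPC4 KD 0.859. Over the 190 other annotated ends of these pairs the medians were 0.918, 0.954 and 1.16, and over the 278 unannotated distal sites 0.923, 0.955 and 0.980. Ends of other kinds of pairs moved alike. The 35 repeated ends among them had a median of 0.432 of control in the double KD and the 642 that were not repeated 1.11. The sign of logAPAR followed the position of the repeated end. Where it was the proximal of 2 annotated ends (97 pairs), the double KD median was -0.86, and where it was the distal end after an unannotated proximal site (62 pairs), the median was 0.83. All these values share the control libraries. The repeated ends of the annotated-to-unannotated pairs were also deeper than the others, with a median of 72.6 reads in control against 12.8, and the part of depth was not tested.

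**Figure D5:**
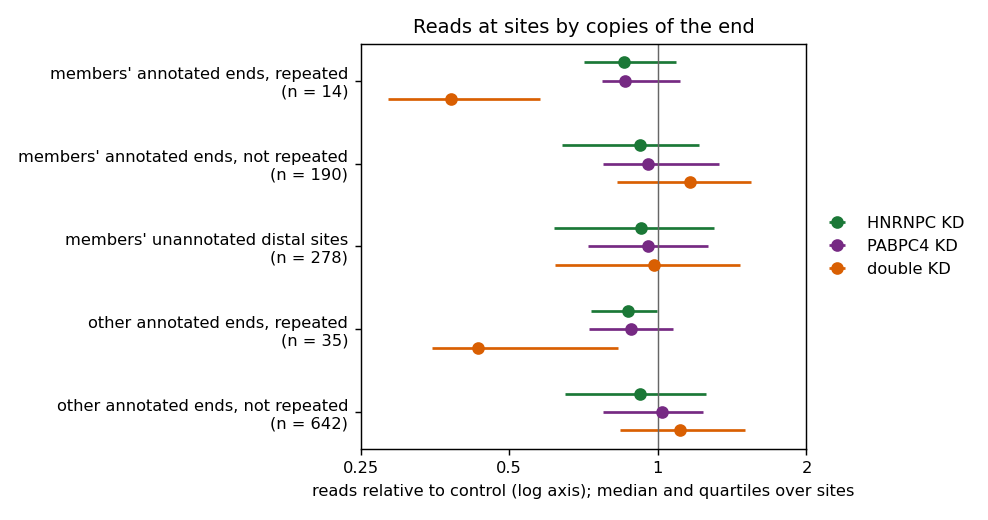
Reads in each KD relative to control (x axis, log scale) for 5 sets of sites, with the median and quartiles over sites, where members are the annotated-to-unannotated pairs. Only the double KD at repeated ends, with medians of 0.381 and 0.432, lies below 0.5.

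The 3 pairs that shifted toward the unannotated site in the double KD without a repeated end were WAC, ANTXR2 and CHRM3, the last with an end that was not placed. WAC, a partner of histone H2B ubiquitin ligases, had 236, 246, 244 and 268 reads at its annotated end and 55.4, 70.3, 65.3 and 113 at the unannotated site. Both sites were highest in the double KD, and the unannotated site was the one that changed more. Its logAPAR was -0.58 ± 0.19 in the double KD (Wald p 0.00175). For ANTXR2, a receptor for anthrax toxin, and CHRM3, a muscarinic receptor, the unannotated site had 1.66 and 3.42 reads in control and 11.8 and 17.7 in the double KD, with logAPAR of -2.29 ± 0.84 and -1.80 ± 0.63. ANTXR2 fell outside the rule for named genes.

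Among the 14 pairs that shifted toward the annotated end, AXL, a receptor tyrosine kinase, had the smallest p in HNRNPC KD. Its annotated end, marked by the ATTAAA shown above, lay in the 3′ UTR 1472 nt before the canonical end. It had 58.8 reads in control and 49.7 in PABPC4 KD, against 199 in HNRNPC KD and 207 in the double KD, so it was high in both groups with the HNRNPC guide and low in both without it. The unannotated site had 17.6, 10.8, 35.1 and 23.9 reads, and the canonical end 448, 391, 518 and 452. Of the gene's reads the annotated proximal end took 11.2%, 33.1%, 8.24% and 30.3%. logAPAR was 1.70 ± 0.41 in HNRNPC KD (Wald p 3.86e-05), -0.86 ± 0.35 in PABPC4 KD (Wald p 0.0140) and 0.95 ± 0.35 in the double KD (Wald p 0.00605).

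RNF213, a giant ubiquitin ligase, had the smallest p of the shifts toward the annotated end. Its logAPAR was 0.10 ± 0.28, 0.13 ± 0.29 and 1.32 ± 0.27 (double KD Wald p 8.71e-07, deposited adjusted p 0.000120). It has 2 shared sites, so its reads could not be recovered, but the error of the double KD value requires at least 13.9 reads at each site in both groups. The annotated end lay in the 3′ UTR, 3482 nt before the canonical end.

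At TMEM192, a lysosomal membrane protein gene, and FAM126A, whose product belongs to a lipid kinase complex of the plasma membrane, the shift came with a fall of a deep unannotated site. The TMEM192 site (chromosome 4, position 165995573 as deposited) had 2504, 2181, 2010 and 745 reads. Its annotated end had 1.87, 3.37, 5.44 and 8.17 reads. The logAPAR of 2.69 ± 0.81 in the double KD (Wald p 0.000931) therefore set a large fall at one site against a few reads at the other. The FAM126A site had 457, 412, 415 and 141 reads and its annotated end, which lies in a coding exon, 1.66, 3.61, 2.61 and 6.32, with a logAPAR of 2.52 ± 0.88. ORAI2, a calcium channel subunit whose end was not placed, was lower at both sites, with 479, 377, 481 and 218 reads at the annotated end and 54.6 in the double KD, 0.273 of control, at the unannotated one, with a logAPAR of 0.51 ± 0.17. Of the 25 unannotated distal sites with 100 or more reads in control, the lowest ratios of double KD to control were those of ORAI2 (0.273), TMEM192 (0.297), FAM126A (0.308) and a METTL2B site (0.339). The copies of these sites were not counted, because their build is not stated.

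The other called shifts toward the annotated end were smaller or rested on fewer reads. MLXIP, the glucose-responsive transcription factor MondoA, had 64.3 reads in control and 70.2 in the double KD at its annotated end and 187 and 105 at the unannotated site, with a logAPAR of 0.66 ± 0.21. TRIOBP, an actin-bundling protein, had 83.1 and 90.8 reads at the annotated end and 103 and 61.6 at the unannotated one, with 0.61 ± 0.22. The TRIOBP end finished in 17 genomic A and had 2 copies. It had 64.5 reads in HNRNPC KD and 58.6 in PABPC4 KD, lower than control in both. The part of the run of A was not tested. In the double KD the annotated ends of MLXIP and TRIOBP stayed near their control level and the unannotated sites were lower. At CSNK2A1, the catalytic subunit of casein kinase 2, the reverse held, with 20.8 and 49.3 reads at the annotated end and 89.1 and 88.1 at the unannotated site (logAPAR 0.87 ± 0.30), but this gene has a retrocopy that may share reads. ST13, an HSC70 cochaperone, was one of the 2 called pairs with an end in a coding exon. It had 41.3 reads in control and 83.2 in the double KD at that end and 23.9 and 14.1 at the unannotated site (logAPAR 1.23 ± 0.39). The ST13 end had 7 copies, and whether reads were shared among them was not tested.

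UVRAG, which acts in autophagy and endosome traffic, had a logAPAR of 1.42 ± 0.51, RAB29, a small GTPase of the Golgi, 0.63 ± 0.24, and PAICS, an enzyme of purine synthesis, 1.68 ± 0.65. The RAB29 end finished in 10 genomic A and had 29 copies, below the limit for a repeated end. PAICS kept its annotated end at 104 reads in control and 106 in the double KD while its unannotated site had 15.7 and 2.99. TSPAN14, a tetraspanin whose annotated end here is the canonical one, had 2.71 ± 0.88, and RILPL1, a partner of Rab proteins, 3.12 ± 1.19 in the double KD and 3.14 ± 1.15 in HNRNPC KD. Both have 2 shared sites and thus no recovered reads, and RILPL1 had the largest error of the called pairs. UVRAG and PAICS fell outside the rule for named genes.

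Some pairs passed p 0.01 in a single KD only. QSOX1, an enzyme that forms disulfide bonds, shifted toward its annotated end in HNRNPC KD, with a logAPAR of 0.83 ± 0.24 (Wald p 0.000654) and values of 0.31 ± 0.22 in PABPC4 KD and 0.51 ± 0.22 in the double KD. PRR11, a cell-cycle gene, shifted toward the unannotated site in HNRNPC KD at -0.76 ± 0.22 (Wald p 0.000679), with 0.12 ± 0.24 in PABPC4 KD and -0.33 ± 0.22 in the double KD. The 1 pair called in PABPC4 KD was WDR3, a ribosome biogenesis factor, whose end lies in a coding exon. Its annotated end had 9.63, 49.3, 38.7 and 65.6 reads, higher in all 3 KDs than in control. Its unannotated site had 7.66 reads in control and 8.90 in HNRNPC KD but 1.78 in PABPC4 KD, so the value of the latter rests on very few reads. Its logAPAR was 1.48 ± 0.61, 2.85 ± 0.91 and 1.32 ± 0.57, so the PABPC4 KD value was the largest and the least precise. That value had a Wald p of 0.00166 and did not pass after adjustment (deposited adjusted p 0.951).

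The place of the end went with the number of calls. Pairs ending in the 3′ UTR numbered 189, of which 19 (10.1%) were called in the double KD, against 5.88% of all shared pairs. In HNRNPC KD 6 of them (3.2%) were called, against 2.49%. Pairs ending in a coding exon numbered 146, of which 2 (1.37%) were called in the double KD, both toward the annotated end, and none in HNRNPC KD. Depth differed too, with a median of 17.9 reads in control at the 3′ UTR ends and 8.59 at the coding-exon ends, and its part was not tested. Repeated ends made up 16 of the 159 placed 3′ UTR ends and 0 of the 104 coding-exon ends. All 7 pairs with a repeated end that were called in the double KD lay in the 3′ UTR, and the part of these was not tested either. The median double KD logAPAR was 0.34 for coding-exon pairs, with 96 of 146 values above 0, and 0.08 for 3′ UTR pairs, with 102 of 189 above 0. Pairs whose transcript has no known mRNA end (76 pairs) gave 1 call in the double KD (1.3%) and the other 271 placed pairs gave 21 (7.7%). Over all shared pairs the share was 5.88%. Of the 48 ends without a known mRNA end, 46 lay in a coding exon. Where reads were recovered, the annotated ends of their pairs had a median of 8.91 reads in control, against 13.4. Runs of at least 5 U in the last 100 nt (TTTTT on the sense strand), the kind of sequence HNRNPC binds, were present at 79 of the 274 ends (28.8%), at 239 of the 851 proximal ends of pairs with both sites annotated (28.1%) and at 944 of the 2705 other ends (34.9%). The 101 pairs with such a run had a median logAPAR of 0.09 in HNRNPC KD and the 246 without it 0.03. They had 1 and 5 calls (0.99% and 2.0%), against 2.49% of all shared pairs.

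Pairs of one gene share sites and are not independent. Of the 277 genes, 210 had 1 pair, 47 had 2 and 20 had more. ATRX and RSF1, chromatin remodelling genes with 6 pairs each, had double KD values from 0.34 to 1.06 and from 0.10 to 1.29, none of them past p 0.01. ANKRD17 had 6 pairs between -0.26 and 0.38. At KDM5A, a histone demethylase gene, the 4 pairs share 1 end in a coding exon and ran from -0.82 ± 0.39 to 1.23 ± 0.57, none past p 0.01. At CREB1, a transcription factor gene, 5 pairs over 2 annotated ends ran from -1.46 to 2.28, none past p 0.01. ATRX, RSF1, ANKRD17 and CREB1 were taken for their number of pairs, with the values known.

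By function, 7 of the 24 called pairs belonged to one of the gene groups and 17 to none. Most of the 380 pairs likewise belonged to none. The kinase and phosphatase group had 15 pairs of 13 genes, with 1 called toward the unannotated site (PRKAR2A) and 2 toward the annotated end (AXL and CSNK2A1) in the double KD, and a median logAPAR of 0.38. Over all kinds of shared pairs of that group 11 of 164 were called. The ubiquitin and proteasome group had 16 pairs of 12 genes, with TRIM56 and RNF213 called in opposite directions and a median of 0.22, beside 13 of 172 called over all shared pairs of the group. Transporters and channels (9 pairs) and vesicle traffic (7 pairs) had 1 call each toward the annotated end, ORAI2 and RAB29, beside 7 of 111 and 10 of 134 over all their shared pairs. The chromatin group, the largest by pairs with 18 of 10 genes, had no call in any table and a median of -0.05 in the double KD, beside 4 of 101 called there over all its shared pairs. Zinc finger factors (10 pairs) had none, beside 10 of 149, and a median of -0.15, with ZNF276 at -0.51 ± 0.31 and ZNF202 at 1.30 ± 0.72.

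HNRNPU, a nuclear matrix hnRNP, had a double KD logAPAR of 1.22 ± 0.53 (Wald p 0.0199), which did not pass p 0.01. The annotated end of HNRNPU is its canonical end, with 91.7 reads at the end in control and 125 in the double KD and 13.6 and 5.45 at the unannotated site of that pair. Cytoskeleton and matrix genes (6 pairs) had a median of 0.53, with ARPC5 at 0.91 ± 0.42 and MYO18A at 0.79 ± 0.66. Chaperones (5 pairs) had 0.20, with SSR3 at -1.19 ± 0.59 and BAG1 at 1.10 ± 0.68. Translation factors (3 pairs) had -0.13, ribosomal proteins (2 pairs, RPL27A and RPL14) 0.17, the cell-cycle group (2 pairs of CDC27) 0.66, and the groups of mitochondrial and small GTPase genes 1 pair each, NDUFV3 at 0.90 ± 0.46 and ARHGAP44 at -0.29 ± 0.53. No pair belonged to the cleavage and poly(A)-binding group. None of the groups in this list had a call in the double KD, but each had few pairs. Over all their shared pairs, 9 of 91 were called for cytoskeleton and matrix, 3 of 87 for chaperones and 4 of 49 for translation factors. Ribosomal proteins had 4 of 23, the cell-cycle group 4 of 44, mitochondrial genes 3 of 37 and small GTPase genes 3 of 62. The group of HNRNPU, splicing factors and hnRNPs (5 pairs), had 9 of 122, and the cleavage group 0 of 26.

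The loss of HNRNPC within PABPC4-depleted cells was read from the difference between the double KD and PABPC4 KD values, in which the control cancels. The variances of both tables were added, which overstates the error. By this measure 5 of the 380 pairs passed p 0.01 (1.32%), against 1.9% of all shared pairs. With errors taken from the recovered reads, 21 of 305 passed, against 5.63% of all pairs with reads. PRKAR2A differed by -1.12 ± 0.25 (Wald p 5.25e-06, 0.00205 after Benjamini-Hochberg adjustment over all shared pairs) and AXL by 1.81 ± 0.49 (Wald p 0.000234, adjusted 0.0440). WIPF2 differed by -0.93 ± 0.27 (adjusted p 0.0891), RNF213 by 1.19 ± 0.40 (adjusted p 0.228) and TRIOBP by 0.87 ± 0.31 (adjusted p 0.336). With errors from recovered reads the adjusted p was 9.37e-05 for WIPF2 and 0.0117 for TRIOBP. Of the 5 pairs, the 2 toward the unannotated site had repeated ends.

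The loss of PABPC4 within HNRNPC-depleted cells, read as the double KD minus HNRNPC KD, passed p 0.01 in 3 pairs, against 1.56% of all shared pairs, and in 9 of 305 with errors from recovered reads, against 3.62%. They were PRKAR2A (-1.08 ± 0.25, adjusted p 0.00681), WIPF2 (-0.81 ± 0.27, adjusted p 0.286) and RNF213 (1.22 ± 0.39, adjusted p 0.197). With errors from recovered reads the adjusted p was 0.00126 for WIPF2 and 0.0482 for NMNAT1, which differed by -0.94 ± 0.43. AXL differed by -0.75 ± 0.54, which did not pass. Set against the sum of both single KDs, the double KD departed at 1 pair, against 1.04% of all shared pairs, and at 6 of 305 with errors from recovered reads, against 2.38%. The 1 pair was PRKAR2A, at -0.93 ± 0.29 (Wald p 0.00153, adjusted p 0.326). RNF213 differed from the sum by 1.09 ± 0.48 (Wald p 0.0242), TRIOBP by 0.87 ± 0.38 (Wald p 0.0237) and WDR3 by -3.02 ± 1.23 (Wald p 0.0141), none of them past p 0.01. With errors from recovered reads the Wald p was 0.00714 for TRIOBP (adjusted 0.358) and 0.00311 for WDR3 (adjusted 0.264). AXL differed by 0.11 ± 0.64.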

How the data were processed

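The 8 samples (4 groups of 2) were read by QuantSeq REV. Per the study's methods, the authors quantified transcript ends from Gencode 33 with Salmon and fitted APAlog, a multinomial logistic regression, for each KD against control. The methods do not describe where the sites named only by position came from. The submitters' processing notes list Salmon 0.14.1, UMI-tools and hg38. The deposited logAPAR values are natural log fold changes, and the authors deposited a p-value and an adjusted p-value (q-value) for each pair, which equalled the Benjamini-Hochberg adjustment of the p-values. These comparison columns are the only values in the tables, and no value per library was used.

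Pairs were matched by name over the 3 tables. Wald errors were |logAPAR| over the normal quantile of p. Reads per site were solved by least squares at 681 genes with 3 or more shared sites (2253 sites, median misfit 9.75e-06), with each site adding 1 over its reads to the variance, once for control and once for the KD. Such reads are normalised, carry counting error only, and give no depth per library, which is unknown. Differences between tables were tested two-sided with variances added. Ends were placed by transcript name and version in Gencode 44, and 20-mers were counted on the assembled chromosomes of hg38. Named pairs were up to 8 per direction by smallest p in the double KD, 4 in each single KD and in double KD minus PABPC4 KD, 3 in the other differences, and up to 2 per gene group. Pairs, gene groups and rules were chosen with earlier results of these data known, and the copy count and the A-rich window before the end were added after seeing the values. Scripts were tested on simulated data and ran in Python 3.11.15 with numpy 2.4.6, pandas 2.3.3, scipy 1.17.1 and matplotlib 3.10.9. A few items are not reported here.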

Additional observations from a re-analysis of the deposited data

Results flagged for a closer look

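The PRKAR2A pair moved in the double KD by -0.93 ± 0.29 (natural log) beyond both single KDs added, a test of the interaction of both KDs (Wald p 0.00153). It did not pass after adjustment over all shared pairs (adjusted p 0.326), and its annotated end lies in repeated sequence with 12120 copies. With the error taken from recovered reads its Wald p was 0.000240 and its adjusted p 0.0541, above 0.05.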

How the results depend on the processing

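No paired analysis was possible because no value per replicate is in the tables, and no replicate could be left out for the same reason. Of 65 alternatives over 12 results, 41 kept the value within 1.5 times or within its interval. At the deposited adjusted p 0.05 the counts of called pairs were 1, 0 and 6 in HNRNPC KD, PABPC4 KD and the double KD (for the last, 4 toward the unannotated site, 2 toward the annotated end). At p 0.001 they were 3, 0 and 6 (4 and 2). In PABPC4 KD 15 pairs had an unadjusted p under 0.05 and no other tool was run. Leaving out A-rich ends, chosen after seeing the data, gave 0 in PABPC4 KD and 13 in the double KD (4 and 9). Leaving out repeated ends, also chosen after seeing the data, gave 3 shifts toward the unannotated site in the double KD, and 3, 1 and 0 pairs for the differences from PABPC4 KD, from HNRNPC KD and from the sum. With errors from recovered reads these were 21, 9 and 6, and at adjusted p 0.05 they were 2, 1 and 0. The cause was not tested beyond the number of pairs each alternative leaves. With 10, 100 or 1000 copies as the limit, the median double KD logAPAR of the repeated ends was -0.50, -0.80 and -0.99, and with 1 pair per gene -0.77. Low reads at most sites, the unknown spread between replicates and the assignment of the PABPC4 KD table limit these results.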
